A study of Homo sapiens with 8 samples.

Results

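The amino acid transporters examined here were 10 genes for plasma membrane carriers of amino acids or taurine, or a subunit of one, chosen by name as the rows SLC7A5, SLC3A2, SLC1A5, SLC7A1, SLC38A1, SLC38A2, SLC1A4, SLC6A6, SLC7A6 and SLC43A1 of a gene count table with 58302 genes. All 10 were in the table and all 10 passed the filter on low counts, which 14133 genes passed. The RNA came from DLD1 cells, a human colorectal cancer line, with stable lentiviral overexpression of wild-type TRMT6 and TRMT61A (OE-WT) or of the vector (CTRL), and each group had 2 libraries. TRMT6 and TRMT61A form the enzyme that writes N1-methyladenosine in tRNA, and the study asked how its overexpression changes colorectal cancer cells. According to the labels, cells of both groups were washed in cycloheximide, a drug that stalls ribosomes, before lysis, and the RNA came from the cleared lysate. The paper's methods speak of biological replicates, in a number that differs from the libraries here, and the labels do not say whether the libraries of a group came from separate cultures, so the p-values measure the spread between these libraries, which may be technical. Whether a line was 1 clone is not given in the sources used here.

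Free amino acids cross the plasma membrane through carriers that differ in cargo and driving force. SLC3A2, the CD98 heavy chain, transports nothing by itself. It binds a light chain through a disulfide bond and brings it to the cell surface. SLC7A5 (LAT1) is the light chain that exchanges large neutral amino acids such as leucine, and SLC7A6 (y+LAT2) is a light chain that exchanges cationic for neutral amino acids. SLC1A5 (ASCT2) and SLC1A4 (ASCT1) are sodium-dependent exchangers of small neutral amino acids, and SLC1A5 is known for glutamine uptake in tumor cells. SLC38A1 and SLC38A2 (SNAT1 and SNAT2) carry neutral amino acids inward with sodium, SLC7A1 (CAT1) carries arginine and lysine, SLC6A6 carries taurine, and SLC43A1 (LAT3) carries large neutral amino acids without a heavy chain. Leucine, glutamine and arginine feed protein synthesis and the mTOR kinase, and several of these genes are known targets of ATF4, the transcription factor of the amino acid response.

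Counts on genes summed to between 10327498 and 12379671 per library, and the overexpression was visible in every library: TRMT6 was at 180.9 and 210.7 CPM in OE-WT cells against 52.6 and 55.4 in CTRL cells, and TRMT61A at 130.4 and 137.5 against 56.8 and 58.9. CPM are counts scaled to a common library size with TMM factors. All 8 colon epithelial markers passed the filter, with a summed level of 12460 to 12870 CPM in OE-WT and 11370 to 11610 CPM in CTRL cells; of these 8, 2 were higher in OE-WT cells (9.44% of all genes tested were) and 3 lower (37.5%, beside 11.6%), with adjusted p below 0.05. With library size only, the 2 higher ones, KRT8 and KRT18, were not called. KRT19, 1 of the 3 lower ones, was called in 4 of 8 alternatives. Its log2 fold change ran from -0.25 to -0.13 with a library left out. The other 2 lower ones were called in 8 of 8 alternatives. These were CDH1 (-0.29, adjusted p = 0.0032) and CLDN7 (-0.44, adjusted p = 2.75e-04), both by edgeR's quasi-likelihood test. The summed markers of fibroblasts (2.46 to 3.22 CPM in OE-WT, 2.27 to 2.41 CPM in CTRL), leukocytes (3.83 to 4.33 and 3.57 to 4.59) and endothelium (1.71 to 1.87 and 1.62 to 2.88) were low, and COL1A2, COL3A1, DCN, CD3E and CDH5 were at 0 in all 4 libraries.

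The abundance of the transporters differed widely. Levels of different genes were compared as CPM per kilobase of the gene's exons. In CTRL cells SLC1A5 was highest at 514.5 ± 14.9 CPM per kilobase (SD, n = 2, as for all values in this order), followed by SLC3A2 at 291.3 ± 10.4 and SLC7A5 at 253.1 ± 1.44. A gap then separated SLC7A1 at 52.8 ± 0.223, SLC1A4 at 34.0 ± 1.09 and SLC6A6 at 29.8 ± 1.42. SLC38A2 at 12.4 ± 0.707, SLC38A1 at 10.7 ± 0.343, SLC7A6 at 9.30 ± 0.0259 and SLC43A1 at 9.10 ± 0.438 CPM per kilobase were lowest, and the libraries of the last pair overlapped. The glutamine carrier, the heavy chain and the leucine carrier thus led in both CTRL libraries.

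In OE-WT cells SLC7A5 stood second at 253.1 ± 23.0 CPM per kilobase and SLC3A2 next at 213.1 ± 3.92, the reverse of their order in CTRL cells, and no library of one overlapped the other in either group. The rest of the order was the same, from SLC1A5 at 473.9 ± 33.8 to SLC43A1 at 7.45 ± 1.17. The place of SLC3A2 depended on the length used. Its exons together span 6392 bases in GENCODE, and with the length of the longest protein-coding transcript it stood first in both groups, at 797.8 ± 28.6 CPM per kilobase in CTRL and 583.7 ± 10.7 in OE-WT cells. Comparisons of 1 gene between groups do not depend on length.

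Across the 10 transporters, 2 were lower in OE-WT cells, 0 were higher and 8 were not called at an adjusted p below 0.05 (edgeR's quasi-likelihood test, adjusted over all genes tested). SLC3A2, the heavy chain, and SLC6A6, the taurine carrier, were the 2 that fell. Of all genes tested, 11.6% were lower, 9.44% were higher and 21.1% were called in either direction by the same rule, so 2 of 10 lower (20.0%) is a share to read against 11.6%. The median log2 fold change of the 10, OE-WT over CTRL, was -0.087 with a range of -0.45 to 0.05, beside a median of 0.010 over all genes tested. The study's own thresholds (a change of more than 1 on the log2 scale in either direction, with p below 0.05 before adjustment) were passed by 0 of the 10, and by 3.15% of all genes tested. The libraries of the groups did not overlap for 7 of the 10, and for 60.2% of all genes tested. At an unadjusted p below 0.05 from the same test 0 of the 10 were higher, and DESeq2 also called 0 higher. In bulk RNA, less RNA in each cell and fewer cells that express a gene cannot be told apart.

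The fall of the heavy chain was the largest difference among the 10. SLC3A2 (ENSG00000168003, chromosome 11, 62856004 to 62888880, plus strand of GRCh38) was counted 13347 and 14042 times in OE-WT cells, against 23346 and 23520 times in CTRL cells. Scaled for library size these were 1345 and 1380 CPM against 1815 and 1909 CPM. Both OE-WT libraries lay below both CTRL libraries, and the gap between the groups was several times the difference within either. The means were 1362 ± 25.04 and 1862 ± 66.8 CPM (SD, n = 2 each). Its mRNA fell by 26.8%, a log2 fold change of -0.45 (standard error 0.068, 95% interval -0.59 to -0.31, adjusted p = 6.13e-05 by edgeR's quasi-likelihood test). All 4 pairings of libraries across the groups were lower, by log2 differences from -0.51 to -0.40.

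Its best-known light chain showed no such difference. SLC7A5 (ENSG00000103257, chromosome 16, 87830023 to 87869507, minus strand) had 1128 and 1283 CPM in OE-WT cells and 1201 and 1210 CPM in CTRL cells, so both CTRL libraries lay between the OE-WT libraries. The means were 1206 ± 109.5 and 1206 ± 6.84 CPM (SD, n = 2 each), a log2 fold change of 0.00034 with a standard error of 0.071 (adjusted p = 0.997 by edgeR's quasi-likelihood test). The 95% interval ran from -0.15 to 0.15 on the log2 scale, which leaves room for a rise of up to 10.9%. Transcripts of SLC7A5 are rich in G and C (61.2%, percentile 88.0 of the genes tested), and its log2 fold change was 0.17 after a trend with GC content was removed from each library (adjusted p = 0.0866 by the same test). The other light chain among the 10, SLC7A6 (ENSG00000103064, chromosome 16, 68264516 to 68301823, plus strand), had 71.0 and 75.1 CPM in OE-WT and 70.4 and 70.7 CPM in CTRL cells. Its OE-WT libraries were the higher ones by a narrow margin, with a log2 fold change of 0.05 (standard error 0.072, 95% interval -0.10 to 0.20, adjusted p = 0.671).

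The balance between the mRNAs of the heterodimer's chains was read inside each library, where scaling between libraries plays no part. Protein of the chains was not analysed here. The SLC7A5 to SLC3A2 ratio, in counts per base of exon, was 1.13 and 1.25 in OE-WT cells and 0.888 and 0.851 in CTRL cells. This was a log2 difference of 0.45, or 1.36-fold. Whether this ratio lay above 1 depended on the length used. With the longest protein-coding transcript, SLC3A2 exceeded SLC7A5 in OE-WT cells (583.7 against 264.7 CPM per kilobase) and in CTRL cells (797.8 against 264.6). The SLC7A6 to SLC3A2 ratio was 0.0445 and 0.0458 in OE-WT cells and 0.0327 and 0.0312 in CTRL cells, 1.41-fold higher. Both ratios were higher in OE-WT cells in all 4 pairings of libraries, and their groups did not overlap. Both are divided by SLC3A2, so they restate its fall and are not separate results. The ratio of the light chains to each other, SLC7A6 to SLC7A5, was 0.0395 and 0.0367 in OE-WT and 0.0368 and 0.0367 in CTRL cells, with overlapping groups. With 2 libraries against 2 an exact two-sided permutation test cannot give a p below 0.333. That was its p for both ratios to SLC3A2, and adjusted over the 5 ratios computed it was 0.555.

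The start sites of the heavy chain and of its best-known light chain are shown for sequence context, with the SLC3A2 window chosen because it was the 1 of 3 that held a searched motif. RefSeq windows of 300 bases around a start site, on GRCh38.p14, were matched for 9 of the 10 transporters, all but SLC6A6, with 16 windows in all. Both strands were searched for TGATGNAA, the element that C/EBP-ATF factors such as ATF4 bind, and for CACGTG, the E-box that MYC and its relatives bind. Each window is printed 5′ to 3′ on the gene's strand, and capitals mark the match.
SLC3A2 promoter, chr11:62881449-62881748, plus strand: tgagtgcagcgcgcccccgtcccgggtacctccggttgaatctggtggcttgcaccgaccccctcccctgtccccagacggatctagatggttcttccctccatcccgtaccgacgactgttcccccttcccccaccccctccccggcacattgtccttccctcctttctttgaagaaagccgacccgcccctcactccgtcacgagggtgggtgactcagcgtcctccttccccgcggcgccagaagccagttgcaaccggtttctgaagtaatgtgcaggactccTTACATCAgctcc
SLC7A5 promoter, chr16:87869458-87869757, minus strand: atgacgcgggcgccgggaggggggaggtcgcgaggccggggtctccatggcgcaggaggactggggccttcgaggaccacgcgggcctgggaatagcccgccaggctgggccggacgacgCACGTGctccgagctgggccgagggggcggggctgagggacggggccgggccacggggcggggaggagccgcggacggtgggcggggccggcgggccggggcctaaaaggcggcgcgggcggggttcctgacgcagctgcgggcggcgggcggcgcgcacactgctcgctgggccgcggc
The SLC3A2 window held TGATGNAA on the opposite strand, 37 bases past the start site, and no E-box, and the other two windows of this gene held neither motif. The SLC7A5 window held no TGATGNAA, and its E-box began 130 bases before the start site. Over the 16 windows of these 9 transporters, TGATGNAA was found in 5 windows of 5 genes (SLC3A2, SLC7A1, SLC38A1, SLC1A4 and SLC1A5), and 3.62% of all 35116 windows held it. CACGTG was found in 3 windows of 3 genes (SLC7A5, SLC43A1 and SLC1A5), and 7.26% of all windows held it. These matches are letters in a window. Factor binding was not analysed here, and a link of the motifs to the mRNA levels was not tested.

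The taurine carrier was the second transporter that fell. SLC6A6 (ENSG00000131389, chromosome 3, 14402576 to 14489349, plus strand) was counted 2024 and 1979 times in OE-WT cells, against 3273 and 2930 times in CTRL cells, or 203.9 and 194.5 CPM against 254.4 and 237.8 CPM. Both OE-WT libraries were below both CTRL libraries. The means were 199.2 ± 6.65 and 246.1 ± 11.7 CPM (SD, n = 2 each), and the mRNA fell by 19.1%, a log2 fold change of -0.31 (standard error 0.066, 95% interval -0.44 to -0.17, adjusted p = 0.00201 by edgeR's quasi-likelihood test). SLC43A1 (ENSG00000149150, chromosome 11, 57484534 to 57515780, minus strand), the carrier of large neutral amino acids that needs no heavy chain, had 23.4 and 29.2 CPM in OE-WT and 33.2 and 31.0 CPM in CTRL cells. Its estimate was close to that of SLC6A6, at -0.29, with a wider error (standard error 0.11, 95% interval -0.51 to -0.06), and it was not called (adjusted p = 0.0614). That call turned on single libraries: leaving out OE-WT replicate 2 gave a log2 fold change of -0.47 (adjusted p = 0.00382), without CTRL replicate 2 it was -0.33 (adjusted p = 0.0423), and without OE-WT replicate 1 it was -0.13 (adjusted p = 0.557), all by edgeR's quasi-likelihood test. With the GC trend removed it was -0.17 (adjusted p = 0.270), where SLC6A6 was at -0.29 (adjusted p = 0.00400).

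Carriers of glutamine and other small neutral amino acids were not called. SLC1A5 (ENSG00000105281, chromosome 19, 46774883 to 46788594, minus strand) had 1499 and 1659 CPM in OE-WT and 1750 and 1679 CPM in CTRL cells, so the groups were separated by less than the spread within OE-WT. Its log2 fold change was -0.12 (standard error 0.071, 95% interval -0.27 to 0.03, adjusted p = 0.251). With the GC trend removed it was 0.055 (adjusted p = 0.621), so its direction depended on that step. Its close relative SLC1A4 (ENSG00000115902, chromosome 2, 64988477 to 65023865, plus strand), whose protein is 62.2% identical over the aligned residues, had 218.4 and 258.7 CPM in OE-WT and 241.4 and 230.8 CPM in CTRL cells. Both CTRL values lay inside the OE-WT range, and the log2 fold change was 0.015 (standard error 0.074, 95% interval -0.14 to 0.17, adjusted p = 0.911). The SLC1A4 to SLC1A5 ratio was 0.0699 and 0.0749 in OE-WT and 0.0662 and 0.066 in CTRL cells, 1.09-fold higher without overlap (exact permutation p = 0.333, 0.555 adjusted over the 5 ratios). With the GC trend removed the log2 fold changes of SLC1A4 and SLC1A5 were 0.049 and 0.055, so the ratio then did not differ in this direction.

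Neither gene of the sodium-coupled pair was called. SLC38A1 (ENSG00000111371, chromosome 12, 46183063 to 46270017, minus strand) had 101.1 and 104.2 CPM in OE-WT and 104.2 and 109.1 CPM in CTRL cells, a log2 fold change of -0.055 (standard error 0.068, 95% interval -0.20 to 0.09, adjusted p = 0.613). SLC38A2 (ENSG00000134294, chromosome 12, 46358188 to 46372773, minus strand), also on chromosome 12 and with a protein 53.5% identical, had 85.1 and 70.1 CPM in OE-WT and 77.3 and 83.9 CPM in CTRL cells. The OE-WT libraries enclosed the CTRL libraries, and the log2 fold change was also -0.055 (standard error 0.084, 95% interval -0.23 to 0.12, adjusted p = 0.691). Both have transcripts low in G and C (41.3% and 37.4%), and with the GC trend removed their log2 fold changes were -0.16 (adjusted p = 0.116) and -0.19 (adjusted p = 0.0926), by edgeR's quasi-likelihood test. SLC7A1 (ENSG00000139514, chromosome 13, 29509414 to 29595688, minus strand), the arginine and lysine carrier, had 356.4 and 374.2 CPM in OE-WT and 407.2 and 404.8 CPM in CTRL cells. All of its 4 library pairings were lower, with a log2 fold change of -0.15 (standard error 0.064, 95% interval -0.28 to -0.02, unadjusted p = 0.0262), and it missed the threshold after adjustment over all genes tested (adjusted p = 0.0953 by edgeR's quasi-likelihood test).

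**Figure D1:**
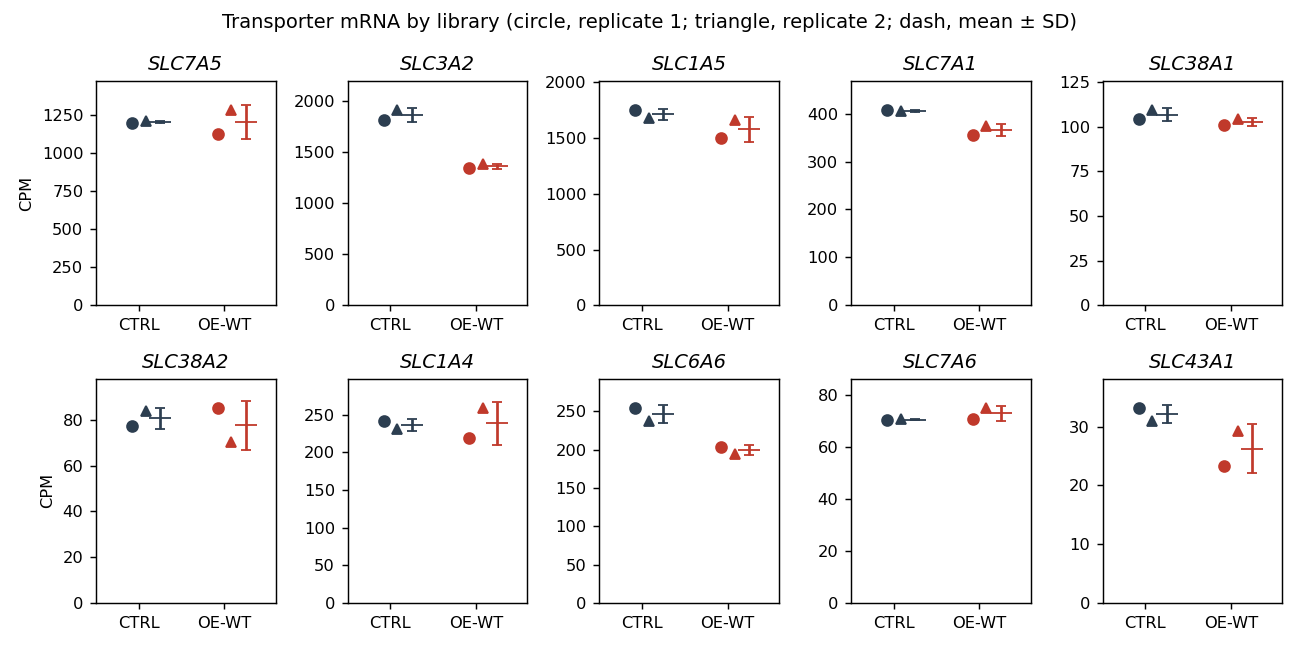
CPM of the 10 transporters in each library, with each vertical axis starting at 0. Points are single libraries and dashes the mean with SD of 2 libraries; SLC3A2 (1345 and 1380 against 1815 and 1909) and SLC6A6 (203.9 and 194.5 against 254.4 and 237.8) are clearly separated, and the OE-WT points of SLC7A5, SLC38A2 and SLC1A4 lie on both sides of CTRL.

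**Figure D2:**
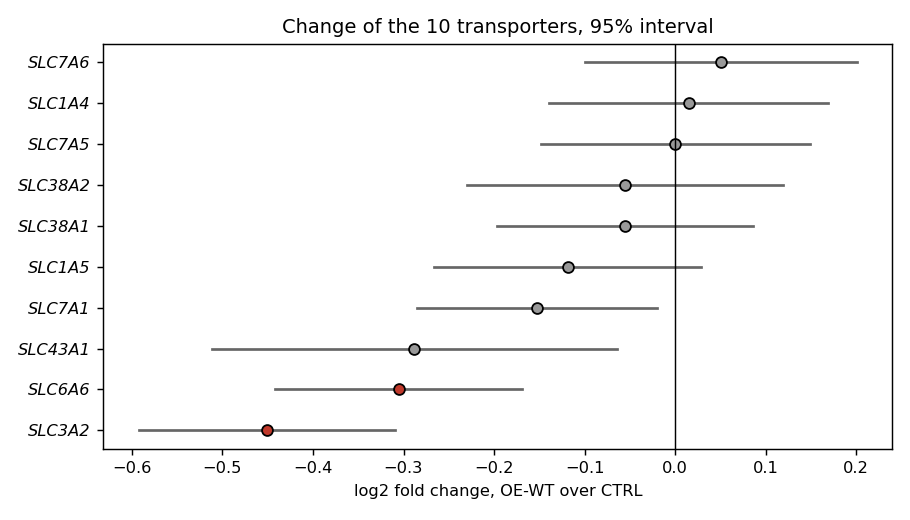
Log2 fold change of each transporter, OE-WT over CTRL, with its 95% interval from edgeR's quasi-likelihood fit; red points passed the adjusted threshold. SLC3A2 (-0.45) and SLC6A6 (-0.31) are the red points, 7 of the 10 estimates are below 0 and the highest is 0.05.

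Together the 10 transporters took 0.478% and 0.535% of the counts in OE-WT cells, against 0.619% and 0.609% in CTRL cells. These are shares of raw counts, without TMM factors. With TMM factors the 10 summed to 5032 to 5428 CPM in OE-WT and 5953 to 5967 CPM in CTRL cells, a smaller gap. SLC3A2 supplied 26.7% and 25.4% of the counts of the 10 in OE-WT cells, against 30.5% and 32.0% in CTRL cells. The share of SLC7A5 was 22.4% and 23.6% in OE-WT cells, against 20.2% and 20.3% in CTRL cells, and that of SLC1A5 29.8% and 30.6% against 29.4% and 28.1%. The OE-WT libraries differed from each other more than the CTRL libraries did for 7 of the 10, by SD of the CPM, as was so for 53.5% of all genes tested.

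Reads of some transporters cannot be fully told apart from those of genes on the opposite strand, because the strand setting of the counting is not given in the sources used here. SLC7A6OS covers 44.4% of the exon bases of SLC7A6; it was counted 417 and 435 times in OE-WT cells, against 506 and 495 times in CTRL cells, with a log2 fold change of 0.09 (adjusted p = 0.473). ENSG00000275719, a long noncoding RNA, lies over 23.4% of the exon bases of SLC1A5 and had 3357, 3825, 5276 and 4520 counts in the 2 OE-WT and 2 CTRL libraries, between 21.8% and 23.4% of the counts of SLC1A5 in each. Its log2 fold change, -0.12 (adjusted p = 0.242), equals that of SLC1A5 to 2 decimals. ENSG00000260466 covers 5.69% of the exon bases of SLC7A5 (715 to 997 counts per library), ENSG00000279649 covers 11.1% of those of SLC7A6 (69 to 108 counts), and GRIP2 covers 2.94% of those of SLC6A6 (30 to 53 counts). SLC3A2 has no such neighbor in its exons. SLC7A5P2, a pseudogene copy that shares 2.79% of the 75-base words of SLC7A5, was at 0 counts in all 4 libraries, where 0 allows up to 3 counts.

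In codon content the transporters differed widely for GAC, GAG, GCA and UUG, which are read by the tRNAs the study followed (Asp-GTC, Glu-CTC, Ala-TGC and Leu-CAA). SLC3A2 had the most GAC (3.59% of 529 codons, percentile 80.3 of 11609 tested genes with a coding sequence) and the most GAG (4.91%, percentile 68.4) of the 10. SLC7A5 had 0.789% GAC (percentile 4.65) and 0.197% UUG (percentile 6.25). SLC38A2 had 0.395% GAG (percentile 0.758) with 5.14% UUG (percentile 99.9), and SLC38A1 1.23% GAG (percentile 4.44) with 3.49% UUG (percentile 98.7). SLC6A6, the other transporter that fell, had 2.10% GAC and 3.06% GAG, below the medians of 2.43% and 3.84%. Ribosome profiling was not analysed here, and a link of codon content to mRNA level was not tested.

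Beyond the 10, 26 other plasma membrane amino acid carriers were listed, of which 13 passed the filter and 5 were at 0 in all 4 libraries. Of the 13, 3 were higher (23.1%, beside 9.44% of all genes tested) and 3 were lower (23.1%, beside 11.6%). The remaining 7 were not called, and the median log2 fold change of the 13 was -0.16. SLC6A20, a proline carrier, rose from 83.4 and 78.6 CPM in CTRL to 112.5 and 125.7 CPM in OE-WT cells (log2 fold change 0.56, adjusted p = 1.26e-05 by edgeR's quasi-likelihood test). SLC3A1, the heavy chain of the cystine carrier (0.63, adjusted p = 0.0283), and SLC7A2, a relative of SLC7A1 for cationic amino acids (0.62, adjusted p = 0.0181), were the other two. SLC1A3, a glutamate carrier, fell from 31.0 and 32.2 to 22.4 and 18.6 CPM (-0.63, adjusted p = 2.62e-04). SLC7A7, a light chain of SLC3A2 for cationic amino acids, fell from 59.9 and 51.8 to 41.2 and 44.3 CPM (-0.38, adjusted p = 0.00303). SLC38A5, a relative of SLC38A1, was lower on 12 and 12 against 38 and 31 counts (-1.19, adjusted p = 0.0125). The calls of SLC3A1 and SLC7A2 were lost without OE-WT replicate 2 or CTRL replicate 1 (adjusted p up to 0.314 and 0.137), that of SLC7A7 without CTRL replicate 1 (0.0647), and that of SLC38A5 without any 1 of 3 libraries, both OE-WT replicates and CTRL replicate 1 (up to 0.112). Among the other SLC3A2 light chains tested, SLC7A8 (-0.16, adjusted p = 0.154) and SLC7A11, the cystine and glutamate exchanger (-0.22, adjusted p = 0.214), were not called.

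Carriers of inner membranes and genes that act on the transporters were described in the same way. Of 9 lysosomal carriers 8 were tested, and 3 were lower (37.5%, beside 11.6% of all genes tested): SLC15A4, for histidine and peptides (-0.57, adjusted p = 0.00127), SLC38A9, the arginine sensor of the lysosome (-0.40, adjusted p = 0.00703), and SLC66A1, for cationic amino acids (-0.29, adjusted p = 0.0355). The count of higher genes was 0, and the median was -0.26. Of 10 mitochondrial carriers 8 were tested, 1 was higher (12.5%, beside 9.44% of all genes) and 2 of the 8 were lower (beside 11.6%), with a median of 0.038. SLC25A13, an aspartate and glutamate carrier, was higher (0.41, adjusted p = 0.00758), and SLC25A29, for basic amino acids (-0.69, adjusted p = 0.00246), and SLC25A38, for glycine (-0.31, adjusted p = 0.0211), were lower. Without OE-WT replicate 1 the calls of SLC38A9, SLC66A1, SLC25A13 and SLC25A38 were lost, and without CTRL replicate 1 those of SLC66A1, SLC25A13 and SLC25A38, at adjusted p up to 0.0657, 0.462, 0.0782 and 0.173.

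All 10 genes listed as amino acid response regulators were tested. Of these, 2 were lower (20.0%, beside 11.6% of all genes tested) and 0 higher, with a median of -0.17. The list also holds ASNS, an enzyme, and EIF2AK3, a kinase of the unfolded protein response. ATF4 had 436.8 and 446.5 CPM in OE-WT and 503.5 and 497.0 CPM in CTRL cells, a log2 fold change of -0.18 just inside the threshold (adjusted p = 0.0470). It was called in 4 of 8 alternatives and in 0 of the 4 fits with a library left out (adjusted p up to 0.230). EIF2AK3, the kinase PERK of the unfolded protein response, was lower at -0.62 (adjusted p = 0.00743, and 0.0864 without CTRL replicate 2). ASNS, the asparagine synthetase that ATF4 induces, was counted 8 and 9 times in OE-WT cells, against 24 and 20 times in CTRL cells. Its log2 fold change was -1.04, on these low counts, and it was not called (adjusted p = 0.0658). It did pass the study's own thresholds (unadjusted p = 0.0157 by edgeR's quasi-likelihood test), as did 3.15% of all genes tested. Of 8 partners and ubiquitin ligases of the transporters 7 were tested, 3 were lower (42.9%, beside 11.6% of all genes tested) and 0 higher, with a median of -0.11. The 3 were LAPTM4B, which recruits the SLC3A2 heterodimer to lysosomes (-0.44, adjusted p = 1.66e-04), BSG or CD147, found with CD98 at the surface (-0.36, adjusted p = 9.83e-04, 0.0849 with the GC trend removed), and LGALS3, a lectin that binds CD98 (-0.36, adjusted p = 3.01e-04). LAPTM4B had 111.1 and 125.9 CPM in OE-WT and 167.4 and 154.5 CPM in CTRL cells, and BSG 1357 and 1500 against 1896 and 1777 CPM. All adjusted p here are from edgeR's quasi-likelihood test over all genes tested. DESeq2 did not call SLC3A1, SLC7A2, SLC38A9, SLC66A1, SLC25A13, SLC25A38, ATF4 or EIF2AK3 and gave SLC38A5 no adjusted p. SLC3A1 and SLC66A1 also lost their calls without the filter and with the GC trend removed.

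The remaining genes with an SLC symbol gave a wider background. Of 321 such genes 190 were tested. Of these, 50 were lower (26.3%, beside 11.6% of all genes tested) and 7 were higher (3.68%, beside 9.44%). The median log2 fold change of the 190 was -0.14. The median of the 10 transporters, -0.087, lay between this value and that of all genes tested.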

How the data were processed

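RNA sequencing counts of 4 libraries, 2 OE-WT and 2 CTRL, were used. The labels list 2 lanes per library, and the table has 1 column per library and 0 unmapped columns. The authors deposited raw counts per gene. The submitters' processing notes name HISAT2 2.2.1, featureCounts 2.0.0, DESeq2 1.34.0 and GRCh38, and the labels describe poly(A) selection with a stranded kit. The paper's methods instead name removal of ribosomal RNA, Cutadapt, HISAT2, HTSeq and edgeR and give more replicates per group, so which route made the table is not settled. The annotation release and strand setting are not given in the sources used here. Poly(A) selection and removal of ribosomal RNA can keep different transcripts.

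Counts were tested with edgeR 4.0.16 in R 4.3.3: low counts were filtered per group (minimum 10), libraries scaled by TMM, and OE-WT compared with CTRL by the quasi-likelihood test with no block, and p-values adjusted over 14133 genes after Benjamini and Hochberg. A gene was called at an adjusted p below 0.05. Standard errors were taken as the estimate over the root of its F statistic, and 95% intervals from them. A count of 0 allows up to 3 counts, 0.233 to 0.302 CPM by library, for counting error only. Symbols, coordinates and lengths came from GENCODE release 44, which matched 57532 of 58302 identifiers. Exact permutation tests of ratios used scipy 1.17.1, and figures matplotlib 3.10.9 in Python 3.11.15. The fit was tested on simulated counts.

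The members and lists were chosen with earlier results of these data known. Named were all 10 members, TRMT6 and TRMT61A, the genes of each list that were called, and genes overlapping a member; SLC7A8, SLC7A11 and ASNS were named after their values were seen. The alternatives tried were DESeq2 1.42.0, edgeR's exact test, scaling by RLE or by library size only, 2 other filters, a replicate block, removal of a GC trend (lowess, span 0.3), each library left out in turn, and another transcript length.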

Additional observations from a re-analysis of the deposited data

How the results depend on the processing

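SLC3A2 and SLC6A6 were called lower in 8 of 8 alternatives, with log2 fold changes of -0.54 to -0.34 and -0.40 to -0.29, and in all 4 fits with a library left out (-0.49 to -0.41 and -0.35 to -0.26; the lone library of a group is assumed to vary like the other group). With library size only, which shifted all genes by -0.091 and gave 733 higher and 2451 lower genes against 1334 and 1642, 4 transporters were lower, SLC7A1 (-0.24, adjusted p = 0.0321 by edgeR) and SLC43A1 (-0.38, adjusted p = 0.00893) among them. The median of the 10 was then -0.18 and 6 other carriers were lower. With the GC trend removed, which gave 1467 higher and 1396 lower genes, the median was -0.14. DESeq2 called 455 genes higher and 765 lower and 1 other carrier higher. Without a filter beyond 1 count 844 were higher and 1427 lower.

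With 1 library left out, 2 to 3 transporters were lower, their median ran from -0.16, without OE-WT replicate 2, to -0.078, and other carriers called higher numbered 1 to 3 and lower 1 to 4; the lowest counts came without OE-WT replicate 2 or CTRL replicate 1. Calls over all genes fell to 764 higher without CTRL replicate 1 and to 872 without OE-WT replicate 1.

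Estimates near 0 changed sign, none of them called. SLC7A5 was -0.089 with library size only, -0.019 without a filter, -0.0057 with at least 10 counts in every library and -0.0026 with the replicate block, and ran from -0.105 to 0.095 with a library left out. SLC1A4 was -0.075 with library size only and -0.0045 without a filter, and ran from -0.122 to 0.137. SLC7A6 was -0.041 with library size only and ran from -1.96e-05 to 0.095. SLC38A2 ran from -0.196 to 0.070. SLC1A5 was 0.055 with the GC trend removed. With transcript in place of exon length, 6 of the 10 kept their place in CTRL.

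Same-numbered libraries did not deviate together across all genes (r = -0.068). With 2 libraries per group this compares a single difference within each group. It cannot show whether same-numbered libraries shared a culture or preparation, which the labels do not give. The replicate block left 2 transporters lower, with 1145 genes higher and 1513 lower. The causes of these shifts were not tested. With 2 libraries per group the standard errors of the 10 ran from 0.064, for SLC7A1, to 0.11, for SLC43A1, the transporter with the fewest counts.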
